A study of Mus musculus with 8 samples.

Results

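Purinergic receptors and the nucleotide-hydrolysing enzymes Acpp and Nt5e were examined in mouse sensory neurons labelled from the hindpaw and the thigh, 10 genes chosen by symbol from the 22609 genes counted. They were the 6 P2X receptor subunits P2rx2, P2rx3, P2rx4, P2rx5, P2rx6 and P2rx7, the 2 P2Y receptors P2ry1 and P2ry2, and the 2 enzymes. RNA was sequenced from neurons of the dorsal root ganglia (DRG), which hold the cell bodies of the body's sensory nerves next to the spinal cord. Naive C57BL/6J mice aged 8 to 12 weeks received WGA-488, a fluorescent lectin that axons carry back to the cell body, in both hindpaws and both thighs, and L3 to L5 ganglia were taken 2 days later for sorting of the labelled cells. The groups were 4 libraries from females, all in the estrous phase, and 4 from males. Both groups carried the same injections, no transgene and no treatment, and neurons of skin and muscle were mixed in every library. The question was whether the sexes differ in these neurons. By the study's text each library held 6 ganglia, L3 to L5 of both sides, which is the number in 1 mouse, so the p-values were read as measuring the spread between mice of a sex.

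ATP leaves damaged, stretched or active cells and acts on sensory nerve endings as a danger and pain signal. P2X receptors are trimeric cation channels that ATP opens directly, whereas P2Y receptors are G-protein-coupled receptors for nucleotides such as ADP, ATP and UTP. Ectoenzymes break ATP down in steps to AMP, and Acpp (prostatic acid phosphatase) and Nt5e (CD73) turn AMP into adenosine, which dampens nociceptors through the A1 receptor. In the DRG, P2rx3, Acpp and Nt5e are known from small-diameter nonpeptidergic nociceptors.

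The libraries held 4.80 to 7.33 M gene reads (M, 1000000 reads). Levels are given as CPM, the reads of a gene per 1000000 gene reads, and 3 reads, the smallest level taken as shown, equalled 0.409 to 0.625 CPM. Every library carried the transcripts of its labelled sex, with 395 to 764 Xist reads in females against 0 to 6 in males, and 240 to 309 Ddx3y reads in males against 0 in females. The pan-neuronal markers (Tubb3, Uchl1, Snap25 and 4 others) summed to 12507 to 17588 CPM in females and 13583 to 13935 CPM in males. Transcripts of satellite glia and Schwann cells were also abundant, 11072 to 14202 CPM over 10 markers in females and 5128 to 10577 CPM in males, with Apoe as the largest. Macrophage markers summed to at most 14.8 CPM, with Ptprc at 0 in 7 of 8 libraries, and the haemoglobin genes Hba-a1 and Hbb-b1 were at 0 in all.

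A pair of libraries stood apart. Female replicate 4 differed from the other females by a chi-square of 30.1 to 44.9 per degree of freedom, against 2.82 to 12.1 for all other pairs within a sex. Relative to the other females it held a smaller share of reads from long genes. The median difference on the log2(CPM + 1) scale was 0.34 for genes with up to 2434 exon bases, 0.15 for those with up to 3832, -0.28 for those with up to 5775 and -0.57 for longer genes. Male replicate 1 had the lowest sums of the large-fibre, glial and fibroblast marker lists. Where leaving out 1 of these libraries moved the estimate of a purinergic gene by over 1.5 times, the value without it is given.

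The order of the genes by level was taken per length, as RPKM (CPM per kilobase of exon, here the union of exons in GENCODE M1). P2rx3 had the highest level of the 10, with 201.5 ± 38.0 RPKM (SD, n = 8), above 98.8% of the 21627 genes that had an exon length. Acpp followed with 77.0 ± 20.9 RPKM and Nt5e with 29.9 ± 9.31 RPKM. P2rx4 with 17.4 ± 2.86 and P2ry1 with 17.4 ± 3.60 RPKM could not be ordered, since P2rx4 was the higher in 3 of 8 libraries. Then came P2ry2 with 9.61 ± 1.45, P2rx6 with 7.90 ± 2.82, P2rx5 with 5.63 ± 1.91 and P2rx2 with 4.01 ± 1.23 RPKM. P2rx7 had the lowest level, 1.46 ± 0.521 RPKM, above 52.0% of the genes with an exon length. Neighbours in this order had ranges that did not overlap only for P2rx3 above Acpp and for P2rx2 above P2rx7. Acpp exceeded Nt5e and P2rx6 exceeded P2rx5 in 8 of 8 libraries, although their ranges over libraries overlapped. Measured over the longest coding transcript in place of all exons, P2rx3 reached 310.2, Acpp 125.5 and P2rx4 21.7 RPKM, and the order stayed.

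None of the 10 genes differed between the sexes after correction. The edgeR adjusted p-values of the 10 genes ranged from 0.719 to 0.983. Over all 12518 genes tested, 11 passed an edgeR adjusted p-value of 0.05, which is 0.0879% of them. At an unadjusted edgeR p-value under 0.05, 0 of the 10 genes passed, against 7.1% of all tested genes, split into 4.62% with higher levels in females and 2.48% in males. The CPM ranges of the sexes overlapped for all 10 genes, whereas they did not overlap for 5.52% of the tested genes. With DESeq2 and with limma-voom the number of the 10 genes past an adjusted p-value of 0.05 was also 0. Estimates were higher in females for 6 and lower for 4, with a median log2 fold change of 0.053 against 0.0088 over all tested genes. Their median absolute log2 fold change was 0.32, against 0.16 over all tested genes. For 7 of the 10 the 95% interval of the sex difference lay within a fold change of 2 in either direction, and P2rx6, P2rx7 and Nt5e were the exceptions.

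**Figure D1:**
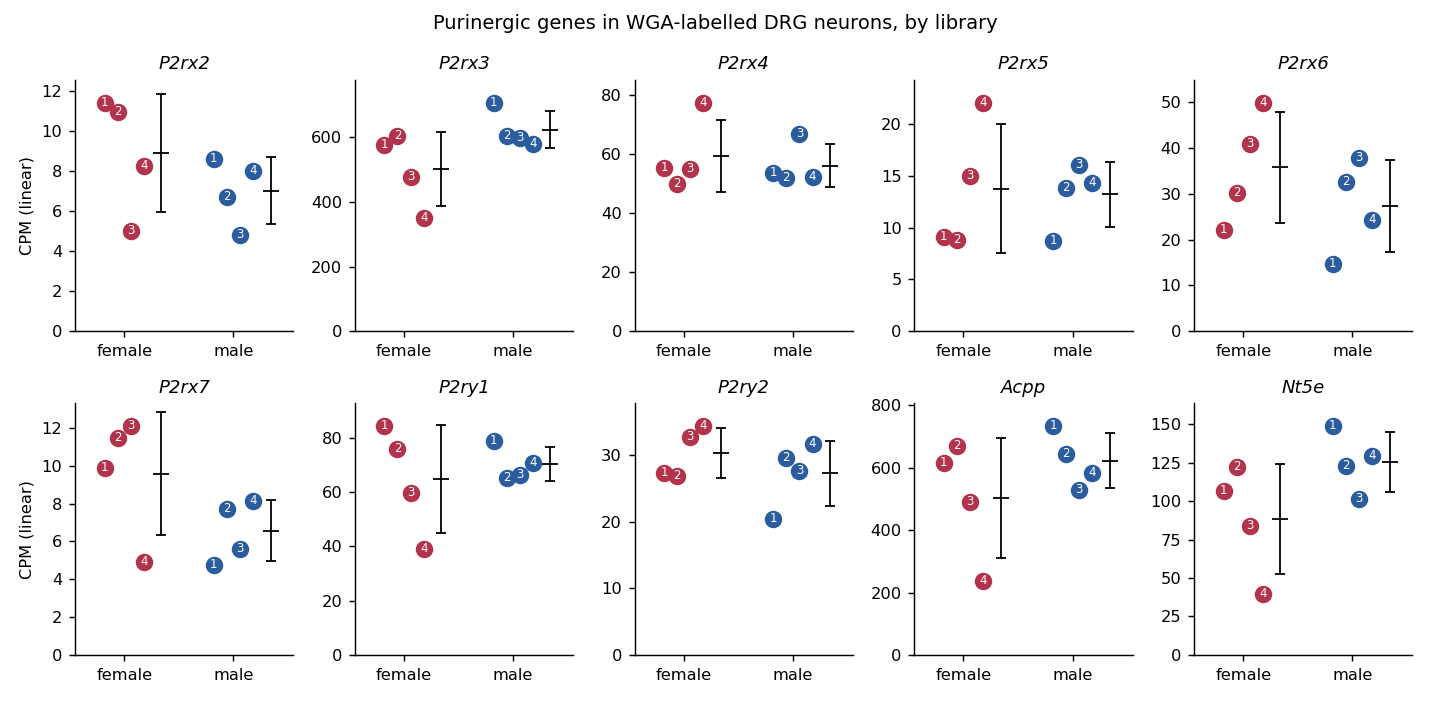
Levels of the 10 purinergic genes in each library, as CPM on linear axes that start at 0. Numbered points are replicates, red for female and blue for male, and the bar beside them is the mean with the SD (n = 4). The sexes overlap in every panel, and female replicate 4 lies lowest for P2rx3, P2ry1, Acpp and Nt5e and highest for P2rx4, P2rx5, P2rx6 and P2ry2.

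P2rx3 encodes the fast-desensitising ATP channel of nociceptors (chromosome 2, 84838740 to 84877619, minus strand, build mm9 as for all genes here). Its level was 576, 604, 477 and 350.0 CPM in female replicates 1 to 4 and 707, 604, 598 and 580.2 CPM in male replicates 1 to 4. Female replicate 2 lay within the male range, and the 3 lowest values were female. The mean was 502 ± 115 CPM in females and 622 ± 57.3 CPM in males (SD, n = 4 each). The log2 fold change, female over male, was -0.32 ± 0.17 (SE), with a 95% interval of -0.69 to 0.04 and an edgeR adjusted p-value of 0.719. The estimate without female replicate 4 was -0.19. P2rx3 shares 51 of its 2789 exon bases with Ssrp1 on the other strand, and whether the counting used strand is not stated.

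P2rx2, whose subunit joins P2rx3 in a slowly desensitising channel (chromosome 5, 110768831 to 110772168, minus strand), was scarce, with 24 to 83 reads per library. Its level was 11.4, 10.9, 5.00 and 8.25 CPM in females and 8.60, 6.68, 4.79 and 7.99 CPM in males. Replicate 3 was the lowest of each sex, and apart from the 4.79 CPM the males lay within the female range. The log2 fold change was 0.33 ± 0.28 (SE, 95% interval -0.28 to 0.95) with an edgeR adjusted p-value of 0.804. Single libraries moved this estimate, to 0.19 without female replicate 1 or male replicate 3 and to 0.51 without female replicate 3.

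Within each library the level of P2rx2 per length was 1.47% to 3.32% of that of P2rx3 in females and 1.13% to 1.94% in males. This ratio needs no scaling between libraries. The log2 ratio differed by 0.64 between the sexes, and the two-sided exact permutation test over 70 labelings gave p = 0.114, or 0.171 adjusted over the 3 ratios compared. Leaving out 1 library at a time gave 0.49 to 0.75, with exact permutation p-values of 0.114 to 0.229, except for 0.88 (unadjusted exact permutation p of 0.0286) without female replicate 3, which had the lowest female ratio.

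P2rx4 and P2rx7 lie side by side on chromosome 5, 16151 bases apart and on the same strand. P2rx4, a calcium-permeable channel found in many tissues (123157593 to 123179747), was at 49.6 to 77.3 CPM in females and 51.8 to 66.7 CPM in males. Its log2 fold change of 0.066 ± 0.16 (SE, 95% interval -0.29 to 0.42) was the second closest to 0 of the 10, and it was -0.087 without female replicate 4, the library with the 77.3 CPM. P2rx7 (123093920 to 123141441), a channel known from immune and glial cells that opens only at high ATP, was at the lowest level per length, with 29 to 72 reads per library.

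P2rx7 had 9.90, 11.5, 12.1 and 4.89 CPM in females and 4.78, 7.72, 5.61 and 8.13 CPM in males. Female replicates 1 to 3 lay above every male library, and female replicate 4 lay below 3 of the 4 males. The log2 fold change of 0.53 ± 0.30 (SE, 95% interval -0.12 to 1.18) was the highest of the 10, and its edgeR adjusted p-value was 0.735. Without female replicate 4 it was 0.74, with an unadjusted edgeR p-value of 0.00682 and an adjusted one of 0.315. The glial marker sums were also higher in every female library than in every male library, and so were those of fibroblasts (76.2 to 123 CPM in females, 40.1 to 69.0 CPM in males), while those of macrophages overlapped (3.16 to 14.8 CPM in females, 2.46 to 7.10 CPM in males). Of the glial markers 5 of 10 had an unadjusted edgeR p-value under 0.05, as had 3 of the 4 fibroblast and 1 of the 2 macrophage markers tested. All of these were higher in females, against 4.62% of all tested genes, and 0 of any list passed after adjustment. In female replicate 4 the glial sum was the highest of the 8 libraries and P2rx7 the lowest of the females. In male replicate 1 both the glial sum and P2rx7 were the lowest of the 8. The part of these lists in the values of P2rx7 was not tested.

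P2rx5 and P2rx6 were highest in female replicate 4 and lowest in male replicate 1. P2rx5 (chromosome 11, 72973923 to 72986187, plus strand), a subunit with small currents when alone, was at 9.07, 8.85, 15.0 and 22.1 CPM in females and 8.73, 13.8, 16.0 and 14.3 CPM in males. The female values spread more widely than the male ones and enclosed nearly all of them. Its log2 fold change was 0.039 ± 0.31 (SE), with a 95% interval of -0.64 to 0.72, and it was -0.29 without female replicate 4 and -0.12 without male replicate 1. P2rx6 (chromosome 16, 17561978 to 17577893, plus strand), which forms channels mainly together with other subunits, was at 22.1, 30.2, 40.8 and 49.9 CPM in females and 14.7, 32.5, 37.8 and 24.3 CPM in males. Its values spanned 3.38-fold over the 8 libraries, the widest of the P2X genes. The log2 fold change was 0.37 ± 0.31 (SE, 95% interval -0.30 to 1.05), and its edgeR adjusted p-value was 0.804. Without female replicate 4 the estimate was 0.17, as it was without male replicate 1, whereas it was 0.55 without female replicate 1 and 0.56 without male replicate 3. P2rx6 shares 554 of 3995 exon bases with Slc7a4 on the other strand, a gene at 52.8 to 70.9 CPM here, and how reads over these bases were assigned is not stated.

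Taken per length, P2rx3 made up most of the P2X transcripts in every library. Its share of the summed RPKM of the 6 subunits was 81.5 ± 6.98% in females and 86.7 ± 2.29% in males (SD, n = 4 each). The lowest share was 71.5%, in female replicate 4, and the highest 89.8%, in male replicate 1. P2rx4 was the next in every library, with 5.73% to 13.3%. P2rx6 took 1.31% to 7.11%, P2rx5 1.29% to 5.25%, P2rx2 0.951% to 2.40% and P2rx7 0.306% to 1.05%. These shares sum to 100 within a library, so one falls where another rises. In bulk samples fewer cells of a type and less RNA per cell cannot be told apart.

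**Figure D2:**
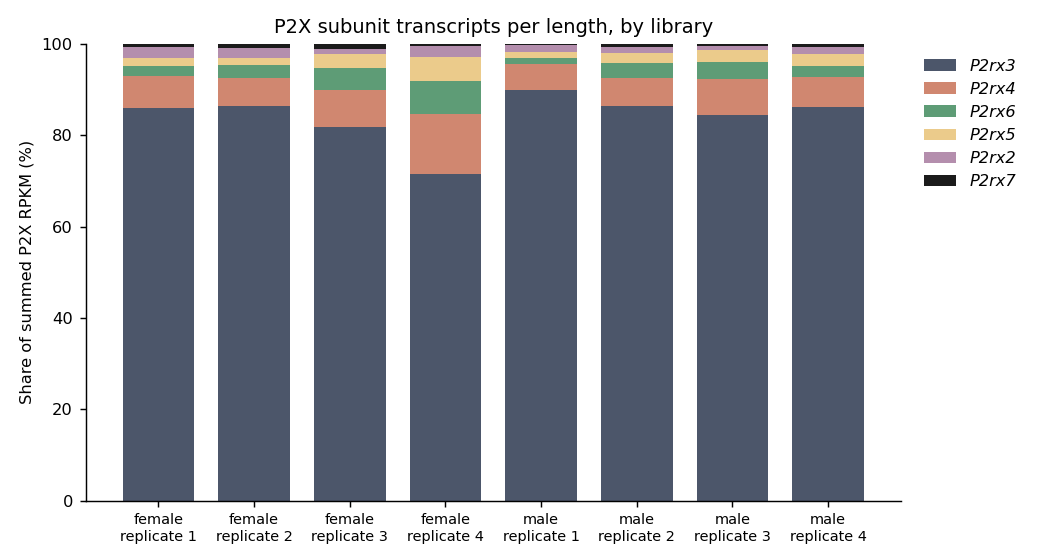
Share of each P2X subunit in the summed P2X RPKM of a library, in percent, stacked from 0 to 100, with the 4 female libraries on the left and the 4 male libraries on the right. P2rx3 fills 71.5% (female replicate 4) to 89.8% (male replicate 1), and P2rx4 is second in each bar.

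The P2Y receptors P2ry1 and P2ry2 had opposite signs of estimate, neither past the test. P2ry1, a Gq-coupled receptor for ADP (chromosome 3, 60806717 to 60812901, plus strand), was at 84.3, 75.8, 59.6 and 39.1 CPM in females and 79.0, 65.2, 66.2 and 70.8 CPM in males. The highest and the 2 lowest values were female. Its log2 fold change was -0.13 ± 0.21 (SE, 95% interval -0.59 to 0.33), 0.044 without female replicate 4 and -0.069 without male replicate 1, while it was -0.29 without female replicate 1. P2ry2, a receptor for ATP and UTP (chromosome 7, 108145086 to 108160505, minus strand), was at 26.9 to 34.4 CPM in females and 20.5 to 31.7 CPM in males, with a log2 fold change of 0.14 ± 0.16 (SE, 95% interval -0.23 to 0.50). It was 0.070 without female replicate 4, its highest library, and 0.023 without male replicate 1, its lowest, while it was 0.21 without male replicate 4.

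The ratio of P2ry2 to P2ry1 per length was 42.1%, 45.9%, 71.1% and 113.9% in females and 33.6%, 58.7%, 53.9% and 57.9% in males. In female replicate 4 alone, P2ry2 was the higher of the pair. The log2 ratio differed by 0.34 between the sexes, with a two-sided exact permutation p of 0.486 (0.486 adjusted over the 3 ratios), and by 0.051 without female replicate 4, 0.15 without male replicate 1 and 0.53 without female replicate 1.

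The AMP-hydrolysing enzymes are both encoded on chromosome 9, with Nt5e at 88222447 to 88266927 on the plus strand and Acpp at 104190581 to 104240058 on the minus strand. Because their levels went together over the libraries, their promoter windows are shown, from 250 bases before to 50 bases after the start of transcription (RefSeq, build GRCm38.p6, Acpp chr9:104337673-104337972, minus strand, and Nt5e chr9:88327359-88327658, plus strand). Each reads 5′ to 3′ along its gene, with CpG dinucleotides in capitals.
Acpp: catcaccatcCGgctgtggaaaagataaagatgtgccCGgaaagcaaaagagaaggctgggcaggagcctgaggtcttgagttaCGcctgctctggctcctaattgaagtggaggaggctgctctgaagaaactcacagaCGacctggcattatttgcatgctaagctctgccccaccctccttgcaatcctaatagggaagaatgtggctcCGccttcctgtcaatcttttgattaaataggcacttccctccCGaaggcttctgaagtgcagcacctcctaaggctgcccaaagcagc
Nt5e: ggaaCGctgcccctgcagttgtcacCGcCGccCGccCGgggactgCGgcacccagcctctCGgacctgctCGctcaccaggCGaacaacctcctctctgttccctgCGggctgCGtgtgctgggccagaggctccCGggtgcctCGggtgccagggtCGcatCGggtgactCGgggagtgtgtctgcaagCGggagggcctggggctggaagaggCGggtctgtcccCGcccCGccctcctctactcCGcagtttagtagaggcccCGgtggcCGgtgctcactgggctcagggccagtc
The Nt5e window held 23 CpG and 71% G or C, a CpG number that 21.5% of all 32851 promoter windows reached, and the Acpp window held 6 CpG and 52% G or C, a number that 56.4% reached. RefSeq windows were found for 7 of the 10 genes, 9 windows in all, and none for P2rx2, P2rx3 and P2rx5. The RUNX core motif TGTGGT, searched on both strands and named after a family with a member, Runx1, known from nonpeptidergic neurons, was found in 0 of these 9 windows and in 16.8% of all promoter windows. P2rx3 could not be searched, and with so few windows the 0 was not read as a difference.

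Acpp was at 616, 670.4, 490.0 and 237 CPM in females and 733, 645, 528 and 583 CPM in males. Apart from female replicate 4, which had less than every other library, the sexes covered much the same range. The means were 503 ± 193 CPM in females and 622 ± 87.8 CPM in males (SD, n = 4 each), and the log2 fold change was -0.32 ± 0.27 (SE, 95% interval -0.91 to 0.27; edgeR adjusted p-value 0.805). Leaving out female replicate 4 gave -0.088, and leaving out female replicate 2 gave -0.50.

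Nt5e was at 107, 122, 84.2 and 39.9 CPM in females and 149, 123, 102 and 129 CPM in males. Male replicates 1, 2 and 4 lay above every female library, replicate 2 only narrowly. The means were 88.2 ± 35.8 CPM in females and 126 ± 19.4 CPM in males (SD, n = 4 each). The log2 fold change of Nt5e was -0.52 ± 0.28 (SE), with a 95% interval of -1.14 to 0.10 and an edgeR adjusted p-value of 0.733, and without female replicate 4 it was -0.28.

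Within a library, Nt5e was a smaller part of Acpp in females than in males. Per length, the Nt5e level was 35.3%, 37.3%, 35.1% and 34.5% of the Acpp level in female replicates 1 to 4 and 41.4%, 38.9%, 39.3% and 45.3% in male replicates 1 to 4. All 4 female ratios lay below all 4 male ratios, female replicate 4 included, although its levels of both enzymes were the lowest of the 8. The mean log2 ratio was -1.49 ± 0.05 in females and -1.28 ± 0.10 in males (SD, n = 4 each), a difference of -0.21. The two-sided exact permutation test gave p = 0.0286, the smallest that 4 against 4 libraries can give, and 0.0857 adjusted over the 3 ratios, so the difference did not pass after correction. Leaving out 1 library at a time gave differences of -0.24 to -0.17.

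**Figure D3:**
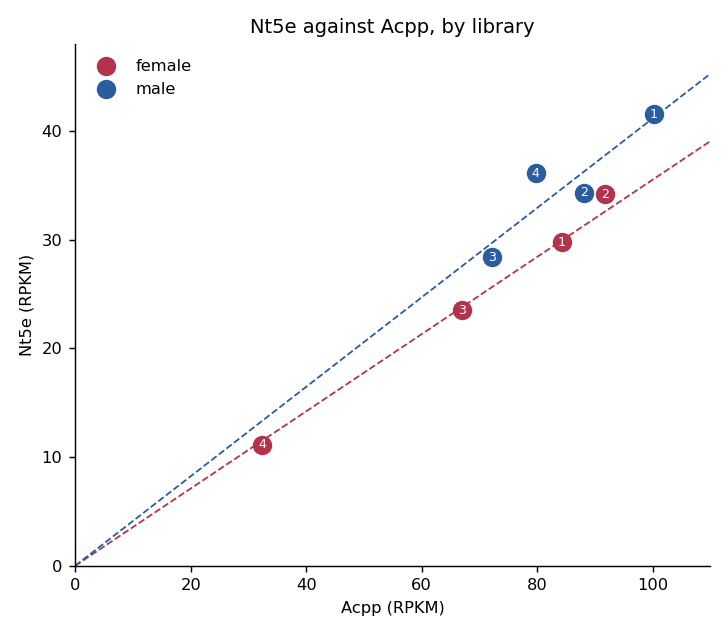
Level of Nt5e (vertical) against Acpp (horizontal) in each library, both as RPKM on linear axes, with numbered points for replicates, red for female and blue for male. Each dashed line goes through 0 with the slope of that sex's mean log2 ratio, and every male point lies above the female line, with ratios of 38.9% to 45.3% against 34.5% to 37.3%.

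The 10 genes did not vary alike over the libraries. P2rx3, Acpp and Nt5e were lowest in female replicate 4 and highest in male replicate 1, as was the sum of 8 nonpeptidergic markers (Mrgprd, Scn11a, Ret and 5 others). P2ry1 was also lowest in female replicate 4. Set against the mean of the other females, female replicate 4 had 0.634 of the P2rx3 level, 0.534 of P2ry1, 0.438 of P2rx7, 0.399 of Acpp and 0.383 of Nt5e. The nonpeptidergic sum was at 0.564. Within the nonpeptidergic list, 6 of 8 genes were lowest in this library, whereas Mrgprd was at 559 CPM against 519 to 724 CPM in the other females and Lpar3 was highest there.

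P2rx5, P2rx6 and P2ry2 showed the opposite order, highest in female replicate 4, at 2.01, 1.61 and 1.19 times the mean of the other females, and lowest in male replicate 1. P2rx4 was also highest in female replicate 4, at 1.45 times, but lowest in female replicate 2. P2rx7 was also lowest in male replicate 1, but highest in female replicate 3. The sums of the glial, fibroblast and macrophage markers were likewise lowest in male replicate 1 and highest in female replicate 4, at 1.28, 1.41 and 2.39 times the mean of the other females. In female replicate 4 the fibroblast marker Col1a1 was at 32.7 CPM, against 1.25 to 2.47 CPM in the other females. The macrophage marker Lyz2 was at 9.10 CPM there, against 0.962 to 2.71 CPM. The pan-neuronal sum was also highest in female replicate 4, at 1.36 times, with 6 of its 7 genes highest there. The sum of the 7 large-fibre markers (Nefh, Pvalb and 5 others) was highest in female replicate 3, and all 7 were lowest in male replicate 1. The part of these lists in the values of P2rx5, P2rx6 and P2ry2 was not tested. Read against the length trend of this library, P2rx2 (1982 exon bases) and P2rx5 (2395 bases) belonged to the shortest genes, with a median difference of 0.34. Genes of the next length class, with a median of 0.15, were P2rx3 (2789 bases), P2ry2 (3000 bases), P2rx4 (3309 bases) and Nt5e (3580 bases). P2ry1 (3886 bases), P2rx6 (3995 bases) and P2rx7 (5524 bases) belonged to the class with a median of -0.28, and Acpp (7310 bases) to the longest, with one of -0.57. The part of this trend in the values was not tested.

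**Figure D4:**
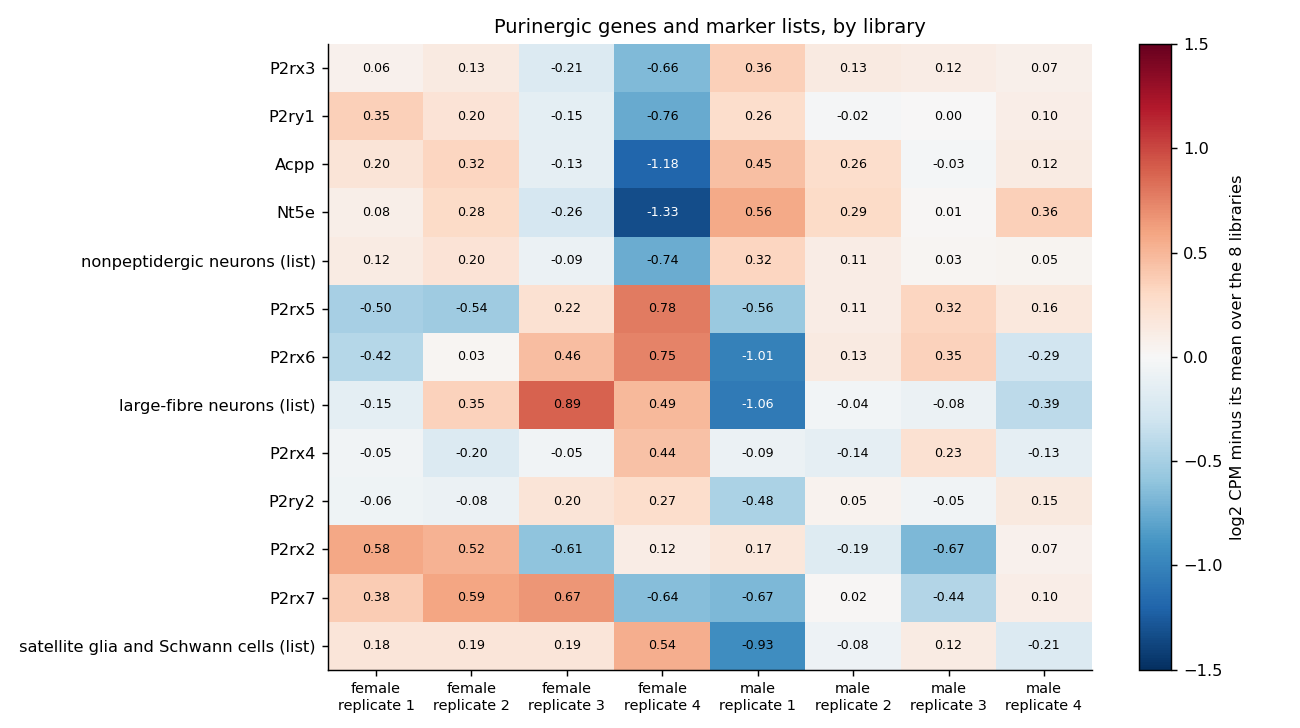
Deviation of each purinergic gene and of 3 summed marker lists from its mean over the 8 libraries, as log2 CPM, with rows for genes or lists, columns for libraries, and red above and blue below the mean. P2rx3, P2ry1, Acpp, Nt5e and the nonpeptidergic list share their lowest value in female replicate 4 (-0.66, -0.76, -1.18, -1.33 and -0.74). P2rx5, P2rx6, P2rx7, P2ry2, the large-fibre list and the glial list share theirs in male replicate 1 (-0.56, -1.01, -0.67, -0.48, -1.06 and -0.93).

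Between the sexes the nonpeptidergic and large-fibre marker lists gave no call after adjustment. None of the 8 nonpeptidergic markers had an unadjusted edgeR p-value under 0.05, and their sums overlapped between females (1616 to 3105 CPM) and males (2763 to 3372 CPM). Among large-fibre markers 2 of 7 had such a p-value, both higher in females, against 4.62% of all tested genes. Calca, Tac1 and Adcyap1, neuropeptide genes of peptidergic neurons named after their values were seen, had unadjusted edgeR p-values of 0.0282, 0.0393 and 0.00139 (adjusted 0.647, 0.690 and 0.410). All 3 were higher in males and highest in male replicate 1, where P2rx3, Acpp and Nt5e were also highest. Their part in the estimates of the purinergic genes was not tested.

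Of 28 further genes of purine signalling, 19 could be tested and 0 passed the edgeR test after adjustment, with adjusted p-values of 0.647 to 0.986. At an unadjusted p-value under 0.05 there were 4, or 21.1% of the 19, against 7.1% of all tested genes. Estimates were higher in females for 15 of the 19, with a median log2 fold change of 0.15, against 51.7% of all tested genes and a median of 0.0088. The glial and fibroblast marker sums were higher in every female library too, and their part in these estimates was not tested. P2rx1, P2ry4, P2ry10, P2ry13 and the adenosine receptor Adora3 had 0 reads in all 8 libraries, which allows at most the 0.409 to 0.625 CPM that 3 reads equal. P2ry6, P2ry14, Enpp3 and Slc17a9 had at most 6 reads per library and did not pass the expression filter.

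**Figure D5:**
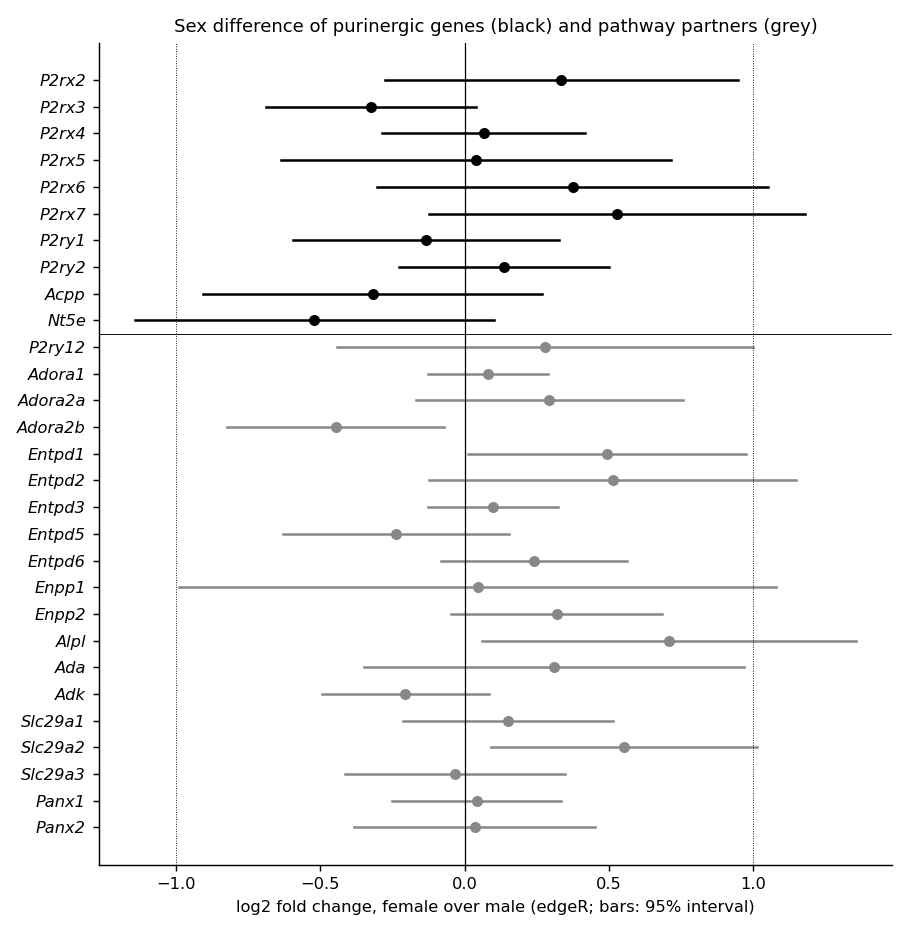
Log2 fold change, female over male, of the 10 purinergic genes (black) and of the 19 tested genes of the pathway (grey), with 95% intervals from the edgeR fit and dotted lines at a fold change of 2 in either direction. All 10 black intervals include 0, and the grey intervals of Adora2b, Entpd1, Alpl and Slc29a2 do not, before adjustment.

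The highest level per length in this wider list was that of Adk, the adenosine kinase, with 364.1 RPKM, followed by Entpd3, an ectoenzyme that removes phosphates from ATP and ADP, with 63.9 RPKM, and Panx1, a channel that releases ATP, with 54.8 RPKM. None of these 3 passed the test, with log2 fold changes of -0.21, 0.098 and 0.042 (edgeR adjusted p-values 0.771, 0.831 and 0.947). Adk was at -0.12 without male replicate 1, at -0.29 without female replicate 4 (unadjusted edgeR p-value 0.0175, adjusted 0.359), and at -0.13 without female replicate 3. Entpd3 was at 0.056 without female replicate 4 and without female replicate 3. Panx1 ranged from -0.071 (without female replicate 4) to 0.11 (without male replicate 1), and was also below 0 without male replicate 3.

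Among the adenosine receptors, Adora1 was the most abundant, with 35.7 RPKM. It varied 1.17-fold over the 8 libraries and was at 213 ± 8.64 CPM in females and 199.8 ± 9.04 CPM in males (SD, n = 4 each), a log2 fold change of 0.080 and an edgeR adjusted p-value of 0.849, or a change of 0.053 without female replicate 4. Adora1 shares 661 exon bases with Mybph on the other strand, which had at most 7.25 CPM. Adora2a was at 4.20 RPKM with a log2 fold change of 0.29 (edgeR adjusted p-value 0.791), and 0.49 without male replicate 1 (unadjusted edgeR p-value 0.0301, adjusted 0.972).

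Adora2b, the low-affinity adenosine receptor, was at 11.3 ± 2.24 CPM in females and 15.4 ± 0.727 CPM in males, with no overlap of the sexes and a log2 fold change of -0.45 (edgeR adjusted p-value 0.647). Entpd1 (CD39), which hydrolyses ATP and ADP, was at 20.04 ± 3.64 CPM in females and 14.1 ± 3.54 CPM in males, again without overlap, with a log2 fold change of 0.49 (edgeR adjusted p-value 0.690). Alpl, the tissue-nonspecific alkaline phosphatase, and Slc29a2, a nucleoside transporter, had log2 fold changes of 0.71 and 0.55 (edgeR adjusted p-values 0.684 and 0.647) with overlapping ranges. Without male replicate 1 Alpl was at 0.46 and Entpd1 at 0.33. Adora2b and Entpd1 were the 2 of 19 without overlap, which 5.52% of all tested genes showed. The number at an unadjusted p-value under 0.05 went from 4 to 1 without female replicate 3 and to 1 without male replicate 4.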

How the data were processed

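Counts of 8 libraries (4 female, 4 male) were analysed. The deposited values were raw read counts per gene: per the labels and the study's methods, the authors primed cDNA with oligo-dT (SMART-seq2), sequenced 50-base single reads, aligned them to mm9 with TopHat2 and counted them with HTSeq. Tool versions, annotation and strand option are not given in the sources used here. The 5 summary lines were dropped; 57.8% to 60.5% of uniquely aligned reads fell outside features. Counts carry no molecular identifiers, so floors cover counting error only.

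Groups came from the titles. Counts were tested with the edgeR 4.0.16 quasi-likelihood test (R 4.3.3, TMM, filterByExpr, sex alone) and Benjamini-Hochberg adjustment over the 12518 genes tested. The biological coefficient of variation was 0.205. Ratios were compared with exact permutation tests. The fit was repeated with limma-voom (limma 3.58.1), with DESeq2 1.42.0, with other scalings and filters, with the replicate number as a block and without each library. The edgeR exact test and the longest coding transcript length were added after seeing the data. Scripts were tested on simulated data. Exon lengths came from GENCODE M1 (NCBIM37, the same assembly as mm9), matched by symbol for 21627 genes, and promoters from RefSeq (GRCm38.p6), with no coordinates carried between builds. Named were all 10 genes, and of the 28 pathway genes the 3 highest per length, the adenosine receptors and those with an unadjusted p-value under 0.05. The peptidergic marker list as a whole is not reported here. The genes, lists and tests were chosen with earlier results of these data known. Figures were drawn in matplotlib 3.10.9 (Python 3.11.15, pandas 2.3.3).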

Additional observations from a re-analysis of the deposited data

Results flagged for a closer look

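Of 64 groups of 4 libraries examined for an outlying value, 4 had 1 library far from the other 3, where chance alone gives about 3.2 (1 in 20). P2rx4 was at 66.7 CPM in male replicate 3 and at 51.8 to 53.5 CPM in the other males. The log2 ratio of P2ry2 to P2ry1 was -1.58 in male replicate 1 and -0.89 to -0.77 in the other males. The satellite glia and Schwann cell markers summed to 14202 CPM in female replicate 4 and to 11072 to 11081 CPM in the other females. The endothelium and blood markers summed to 13.6 CPM in female replicate 4 and to 2.92 to 4.16 CPM in the other females.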

How the results depend on the processing

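Over the 10 purinergic genes, 148 alternative fits were made, 141 kept the direction of the estimate and 7 reversed it, and 0 passed an adjusted p-value of 0.05. P2rx5 reversed to -0.037 with limma-voom and -0.014 with the replicate block, and ranged from -0.29 (without female replicate 4) to 0.20 when each library was left out, below 0 also without female replicate 3 and male replicate 1. Without female replicate 4, P2rx4 went to -0.087 (up to 0.15 without another library), P2ry1 to 0.044 (down to -0.29) and Panx1 to -0.071 (up to 0.11), and Panx1 was also below 0 without male replicate 3. The number of all genes past an adjusted p-value of 0.05 was 11 in the edgeR fit, 48 with DESeq2, 48 with the edgeR exact test, 6 with the replicate block and 7 to 84 when each library was left out, the lowest without male replicate 4 and the highest without female replicate 1. At an unadjusted edgeR p-value under 0.05 the number of all genes went from 889 to 1453 without female replicate 4 and to 587 without male replicate 1. The number of the 10 genes at that threshold was 0 to 2 over these fits, with 2 (P2rx3 and Nt5e) without female replicate 2 and 1 (P2rx7) without female replicate 4. For the other pathway genes it was 1 to 4. The log2 difference of the P2rx2 to P2rx3 ratio was 0.49 to 0.88. The cause of these changes was not tested.

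Whether same-numbered libraries share more than a number is not stated in the sources used here. Their deviations from the mean of their sex correlated with r of 0.094, -0.109, 0.144 and 0.005, which cannot show whether they were handled together. With the replicate block, 2 of the 10 genes had an unadjusted edgeR p-value under 0.05, P2rx3 (0.0393) and Nt5e (0.0496), with adjusted p-values of 0.702 and 0.708. P2rx2 and P2rx7 did not pass the stricter filter of 10 CPM. Among the 10 genes, depth limits P2rx2 and P2rx7 most, at 24 to 83 and 29 to 72 reads.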
